A study of Mus musculus with 8 samples.

Results

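The 43 interferon-stimulated genes described here are genes that cells switch on when interferon reaches them. They were taken by gene symbol from a list drawn up with earlier results of these data known, and all 43 were found among the 15110 genes measured. RNA-seq was run on geniculate ganglia of adult mice of strain C57Bl/6, with 4 libraries of Egr4+/+ wild type littermates and 4 of Egr4-/- mice, which lack both working copies of the transcription factor gene Egr4. The labels describe the material as every cell of the ganglion and give neither the way in which Egr4 was disrupted nor any infection or interferon treatment. In such bulk RNA, fewer cells of a type and less RNA per cell cannot be told apart.

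Type I interferons bind the receptor pair Ifnar1 and Ifnar2, and the kinases Jak1 and Tyk2 then activate the factor ISGF3, which includes Stat2 and Irf9. ISGF3 binds the interferon-stimulated response element in the promoters of its target genes. Interferon gamma acts through the receptor pair Ifngr1 and Ifngr2, and its signal reaches genes through the gamma-activated sequence. The products include sensors of foreign RNA, enzymes that degrade or block viral RNA, and membrane proteins that hinder virus entry or release. Macrophages, endothelial cells, glia and neurons can all respond to interferon, so these genes mark no single cell type.

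Total counts ran from 30849310 to 54255872 per library. Egr4, the targeted gene, stood at 1.54, 3.14, 0.925 and 3.24 CPM, the count relative to the TMM-scaled library size, in wild type libraries 1 to 4 and at 0.444, 1.22, 0.940 and 1.04 CPM in knockout libraries 1 to 4. Its groups overlapped (edgeR quasi-likelihood adjusted p = 0.924). The counts cover the gene as one unit, so they do not check a deletion of a piece of it. The ganglion neuron marker P2rx3 was present in every library, at 51.7 to 129 CPM, while Phox2a was at most 2.24 CPM. The 7 listed neuron markers summed to 2290 to 5486 CPM in wild type and 1815 to 6105 CPM in knockout libraries. Of these, 6 had negative log2 fold changes, with a median of -0.59. By the edgeR quasi-likelihood test 0 were called and 3 of 7 had an unadjusted p under 0.05, against 4.84% of all genes. Knockout library 4 stood apart in 4 of 4 skeletal muscle markers, which summed to 1185 CPM there and to 7.30 to 40.4 CPM elsewhere. Knockout library 2 stood apart in endothelial markers, at a sum of 1402 CPM against 298 to 475 CPM elsewhere. Xist, transcribed from the inactive X chromosome of females, was without a read in knockout libraries 1 and 2 and wild type library 4, and had 177 to 421 counts in the other 5 libraries.

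Promoter sequences were searched for the letters of the response elements. RefSeq windows of build GRCm38.p6, reaching from 250 bases before to 50 bases after each start, were at hand for 34 of the 43 genes. A RefSeq start need not be the outermost start of the gene, and for Ifitm1 the window lies inside the gene as deposited. The core letters of the response element, GAAANNGAA, were found on either strand in windows of 21 of the 34 genes, or 61.8%, against 9.76% of all 27025 genes with a window. On the strand of the gene alone, the core was in 10 of the 34, against 5.15% of all genes. The letters TTCNNNGAA of the gamma-activated sequence, which read the same on both strands, were in windows of 10 of the 34 genes, or 29.4%, against 9.55% of all genes. Cores that begin 6 bases apart on 1 strand, and so share the middle letters GAA, were in windows of 8 genes (Ifit1, Oas1a, Oas3, Eif2ak2, Isg15, Bst2, Gbp3 and Irgm1), or 23.5%, against 0.241% of all genes.

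The 160 bases before the RefSeq start are shown for 5 genes described in what follows, with each core in capitals. Ifit1, Ifit3 and Isg15 hold 3 cores each. Oas3 holds 2 and Rsad2 1. Sequences run 5′ to 3′ on the strand of the gene, so cores on the other strand appear as their reverse complement, starting with TTC.
Ifit1, chr19:34640729-34640888, plus strand: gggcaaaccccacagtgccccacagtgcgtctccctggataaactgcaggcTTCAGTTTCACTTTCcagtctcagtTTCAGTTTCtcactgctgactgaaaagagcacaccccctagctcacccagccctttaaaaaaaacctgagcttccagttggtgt
Ifit3, chr19:34583369-34583528, plus strand: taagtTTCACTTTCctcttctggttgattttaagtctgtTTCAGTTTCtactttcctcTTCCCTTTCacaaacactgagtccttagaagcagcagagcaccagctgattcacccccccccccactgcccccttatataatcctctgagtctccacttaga
Isg15, chr4:156200819-156200978, minus strand: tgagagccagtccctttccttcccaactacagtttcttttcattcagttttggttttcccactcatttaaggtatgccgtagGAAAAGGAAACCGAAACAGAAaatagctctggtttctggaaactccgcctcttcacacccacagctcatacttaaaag
Oas3, chr5:120777660-120777819, minus strand: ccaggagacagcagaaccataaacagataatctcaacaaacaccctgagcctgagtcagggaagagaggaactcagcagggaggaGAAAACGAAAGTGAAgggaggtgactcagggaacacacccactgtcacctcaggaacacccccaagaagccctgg
Rsad2, chr12:26456453-26456612, minus strand: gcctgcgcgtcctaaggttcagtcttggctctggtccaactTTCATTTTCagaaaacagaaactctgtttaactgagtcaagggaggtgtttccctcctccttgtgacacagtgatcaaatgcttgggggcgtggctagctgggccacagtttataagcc

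The 3 cores of Ifit1 begin 109, 103 and 84 bases before the start, and those of Isg15 begin 78, 72 and 66 bases before it. In Ifitm3 and Eif2ak2 the cores lie after the start, at 2 and 19 bases and at 18 and 24 bases, and so outside the stretch shown for other genes. A match of letters is a description of the window and does not show that a factor binds there, and the absence of a match says only that these letters are not in it.

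**Figure D1:**
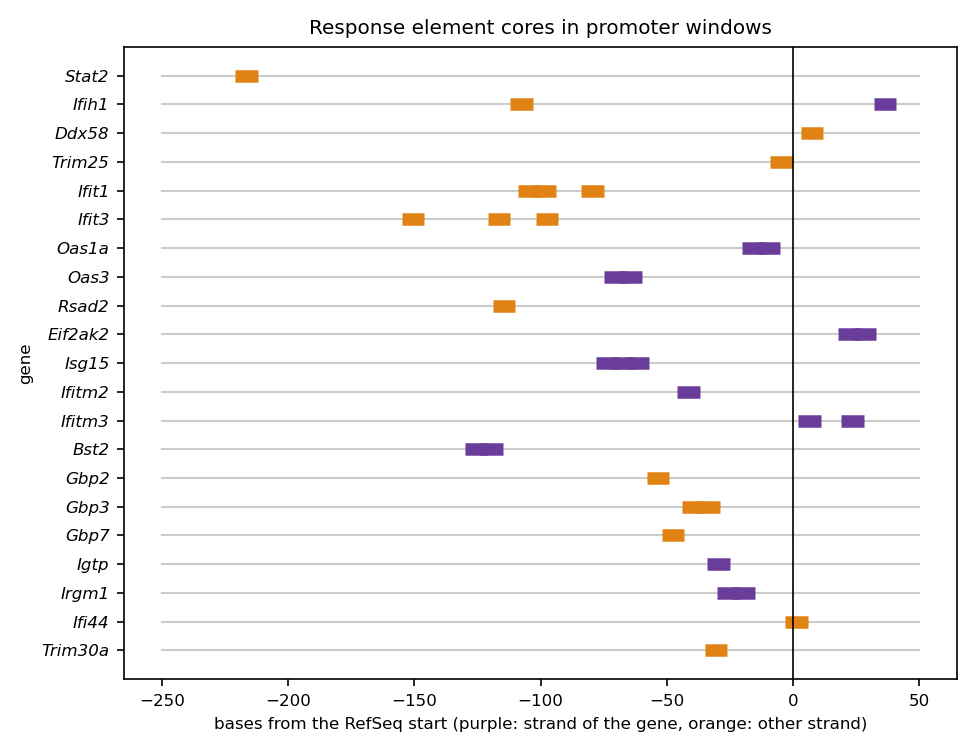
Position of the response element core in the promoter windows of the 21 genes that hold it. Each grey line is a window from 250 bases before to 50 bases after the RefSeq start, and each block is a core of 9 bases on the strand of the gene (purple) or the other strand (orange). Blocks that touch are cores 6 bases apart, as in Isg15, Ifit1 and Oas3.

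All 43 genes had counts in the ganglion, and their levels per length spanned a wide range. By the deposited log2 FPKM, which allows comparison between genes, Ifitm3 was the highest in wild type at 8.10 ± 0.18 (SD, n = 4), followed by Ifitm2 at 7.53 ± 0.22 and Ifi27 at 7.30 ± 0.27. Ifitm2 and Ifi27 differed by less than the SD of Ifi27. Lgals3bp, a secreted glycoprotein, followed at a log2 FPKM of 5.90 ± 0.29, Ifitm1 at 5.49 ± 0.29 and Bst2 at 5.16 ± 0.13. These were the 6 genes with a wild type mean above 5. The classical responders Ifit3 (4.88 ± 0.46), Isg15 (3.95 ± 0.31), Ifit1 (3.83 ± 0.04) and Irf7 (3.42 ± 0.44) lay in the middle of the range. Isg15 and Ifit1 differed by less than the spread of Isg15. Mean log2 FPKM was below 0 for 6 genes, and the lowest were Mx1 (-4.83 ± 1.86), Mx2 (-3.26 ± 2.38), Oas2 (-2.31 ± 1.32) and Oas3 (-1.57 ± 1.33), whose spreads between libraries overlap.

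**Figure D2:**
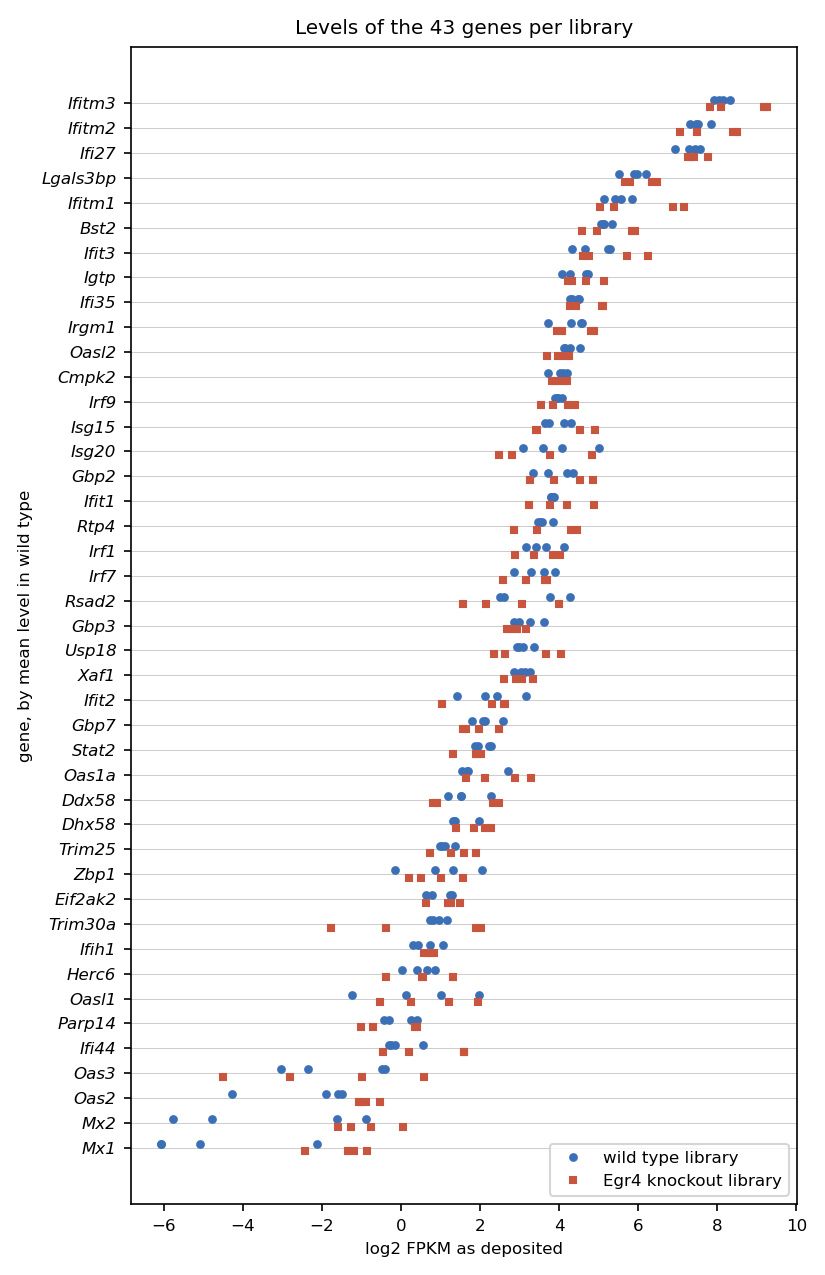
Deposited log2 FPKM of the 43 genes in each library, ordered by the wild type mean. Blue circles are the 4 wild type and red squares the 4 knockout libraries; Ifitm3 stands highest, Mx1 lowest, and for Ifitm1, Ifitm3 and Trim30a the knockout squares spread wider than the wild type circles.

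The comparison of knockout with wild type asks whether these genes differ in ganglia without Egr4. None of the 43 genes was called: with edgeR's quasi-likelihood test, 0 had an adjusted p below 0.05, where 0.00662% of all genes were called. At an unadjusted p under 0.05 there were also 0 of 43, against 4.84% of all genes in either direction and 1.94% of all genes higher in the knockout. Log2 fold changes were positive for 30 genes and negative for 13, with a median of 0.17 against 0.01 over all genes, of which 51.3% were positive. The sign was the other one in at least 1 of 19 other fits for 22 of the 43 genes, and for 0 of them under another scaling. The groups did not overlap for 1 of the 43 genes, Oas2, where 2.62% of all genes had groups without overlap. DESeq2, limma-voom and the edgeR likelihood ratio test called 0 of the 43 as well, with 1, 1 and 2 genes at an unadjusted p under 0.05.

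The precision differed between genes. The 95% interval of the log2 fold change lay between -1 and 1 for 20 of the 43 genes, so a change of over 2-fold in either direction lies outside that interval. For 18 genes the interval reached above 1 and for 9 below -1, and for these a 2-fold change lies inside it. With Xist class as a covariate, the median log2 fold change was -0.02 and 20 of the 43 were positive in place of 30.

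**Figure D3:**
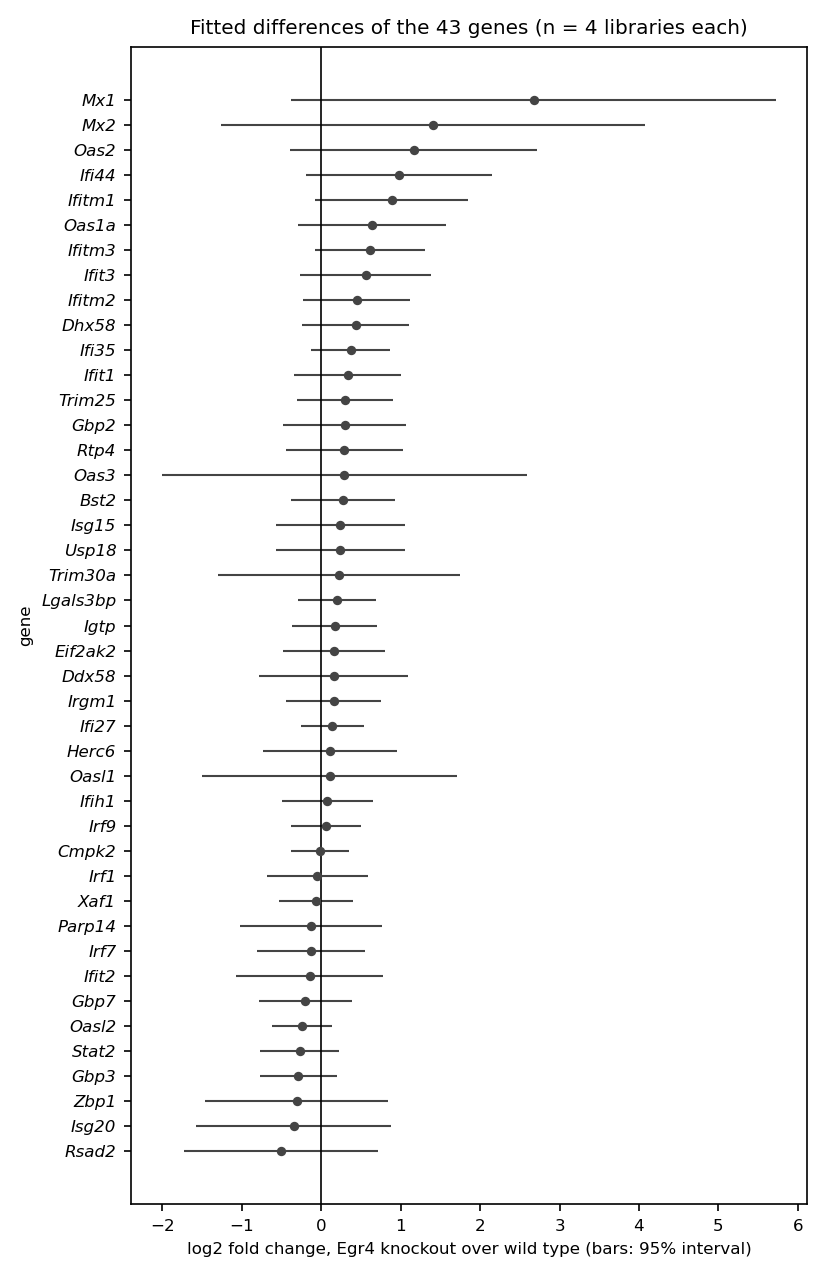
Fitted log2 fold change of knockout over wild type for each of the 43 genes, with its 95% interval as a bar (edgeR quasi-likelihood fit, 4 libraries a group). Every bar crosses 0; Mx1, Mx2 and Oas3 have the widest bars, and Cmpk2 and Irf9 lie near 0 with narrow ones.

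Among the transcription factors of the pathway, Irf1, Irf7, Irf9 and Stat2, 1 log2 fold change was positive and 3 were negative, from -0.27 to 0.06, and 0 were called. Irf7, the factor that amplifies type I interferon production, stood at 13.5, 18.1, 27.6 and 22.6 CPM in wild type libraries 1 to 4 and at 23.3, 23.9, 16.5 and 11.1 CPM in knockout libraries 1 to 4. Its lowest value was in knockout library 4, and the groups overlapped throughout. Irf9, the DNA-binding part of ISGF3, was steady in wild type at 42.2 ± 1.98 CPM and varied more in the knockout, at 44.0 ± 11.3 CPM (SD, n = 4 each).

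The sensors of foreign nucleic acids had positive log2 fold changes in 4 of 5 genes, and 0 were called. Dhx58, which encodes the RIG-I-like receptor LGP2, stood at 6.05, 6.15, 9.42 and 5.92 CPM in wild type and at 8.66, 11.7, 6.34 and 10.4 CPM in knockout libraries. Wild type library 3 reached into the knockout range, and knockout libraries 1 and 3 lay within that of wild type. The log2 fold change was 0.43 ± 0.30 (SE). The edgeR quasi-likelihood adjusted p was 0.924, and the exact permutation p was 0.171. Ddx58, the RNA sensor RIG-I, reached 24.7 and 27.7 CPM in knockout libraries 1 and 2 but 9.25 and 8.68 CPM in knockout libraries 3 and 4, on either side of wild type at 15.8 ± 5.48 CPM (SD, n = 4). Ifih1, the RNA sensor MDA5, was even over the knockout libraries, at 8.26 to 9.86 CPM.

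The IFIT genes lie side by side on chromosome 19 and encode proteins that bind foreign RNA ends and stop its translation. Ifit3 (34583529 to 34588982, mm10) stood at 75.2, 78.0, 40.3 and 50.5 CPM in wild type libraries and at 153, 104, 54.2 and 48.5 CPM in knockout libraries. Knockout libraries 1 and 2 were above all wild type libraries, while the other 2 were within their range. The log2 fold change was 0.56 ± 0.37 (SE). The edgeR quasi-likelihood adjusted p was 0.924, and the exact permutation p was 0.400. Ifit1 was nearly constant in wild type, from 36.5 to 38.6 CPM, and in the knockout ran from 25.1 CPM (library 4) to 78.0 CPM (library 1). Ifit2 followed another order, with its highest value, 35.0 CPM, in wild type library 2. Of the stretches of 100 bases in Ifit3 transcripts, 31.7% also occur in its near copy Ifit3b, so its counts may be split or shared between them.

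The OAS genes encode enzymes that make the messenger 2-5A, which activates RNase L, and related proteins. Oas2 (chromosome 5, 120730333 to 120749848) stood at 0.987, 1.34, 1.25 and 0.155 CPM in wild type and at 1.82, 2.64, 2.05 and 1.83 CPM in knockout libraries. All 4 knockout libraries were above all 4 wild type libraries, at levels of 7 to 113 counts a library. The log2 fold change was 1.16 ± 0.70 (SE), with 0.924 as the edgeR quasi-likelihood adjusted p. The exact permutation p of 0.0286 is the smallest that 70 arrangements can give and was not adjusted over the genes compared. Oas1a stood at 5.45, 6.12, 5.98 and 12.3 CPM in wild type and at 18.6, 13.8, 8.26 and 5.83 CPM in knockout libraries, a log2 fold change of 0.64 ± 0.42 (SE). Wild type libraries 2, 3 and 4 lay within the knockout range, and knockout libraries 3 and 4 within that of wild type. Of the stretches of 100 bases in Oas1a transcripts, 40.9% also occur in Oas1g. Oasl2 had the steadier level of the family, at 54.4 to 72.5 CPM in wild type and 40.5 to 60.0 CPM in knockout libraries, a log2 fold change of -0.24 ± 0.17 (SE). Oas3 had the largest fold of highest over lowest library in the family, 43.4, from 0.162 to 7.04 CPM, with both ends in the knockout.

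Of the 6 other antiviral enzymes and Mx GTPases, 3 had positive log2 fold changes, and 0 were called. Mx1 and Mx2 encode dynamin-like GTPases that trap viral nucleoproteins, and in common laboratory strains including C57BL/6 the Mx1 gene carries a deletion and makes no working protein. Mx1 (chromosome 16, 97447035 to 97462906) had 31, 0, 2 and 0 counts in wild type libraries 1 to 4 and 24, 48, 87 and 54 counts in knockout libraries 1 to 4. Wild type library 1, at 0.638 CPM, lay above knockout library 1, at 0.508 CPM, and below the other 3 knockout libraries. The log2 fold change was 2.68 (95% interval -0.38 to 5.73). The edgeR quasi-likelihood adjusted p was 0.924, and the exact permutation p was 0.0571. In the fits that left out 1 library each or used other settings, its log2 fold change ran from 2.20 to 5.94, and its adjusted p was 0.519 or more in each. The largest value came without wild type library 1 (edgeR adjusted p = 0.843). Mx2 had 62, 0, 35 and 2 counts in wild type and 36, 59, 52 and 106 counts in knockout libraries, so its groups overlapped too. A library with 0 counts allows up to 0.0972 CPM in wild type library 2 and 0.0668 CPM in wild type library 4, taking 3 counts as the limit and covering counting error only.

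Rsad2 and Cmpk2, neighbours on chromosome 12 (26442743 to 26456452 and 26469215 to 26479837), had different orders over the libraries. Rsad2, which encodes viperin, an enzyme that makes a chain-terminating nucleotide, stood at 21.4, 23.2, 51.9 and 73.9 CPM in wild type and at 31.7, 60.1, 16.7 and 11.2 CPM in knockout libraries. Its highest values were in wild type libraries 3 and 4 and knockout library 2. Cmpk2, a mitochondrial nucleotide kinase that supplies viperin's substrate, ranged only from 42.2 to 58.4 CPM over all 8 libraries. Isg20, an exonuclease of RNA, had its extremes in the same libraries as Rsad2, highest in wild type library 4 at 50.8 CPM and in knockout library 2 at 44.8 CPM, and lowest, at 8.70 CPM, in knockout library 4. Summed neutrophil markers were 393, 269, 1412 and 3501 CPM in wild type and 1347, 1055, 339 and 108 CPM in knockout libraries, with 8 of 8 markers measured and none at 0. Their part in the levels of Rsad2, Isg20 and Oas3 was not tested. Eif2ak2, the kinase PKR, stood at 8.70 ± 1.97 and 9.72 ± 2.28 CPM (SD, n = 4 each).

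Isg15 encodes a ubiquitin-like protein, Herc6 a ligase that attaches it in the mouse, and Usp18 the protease that removes it and dampens receptor signalling. All 3 had positive log2 fold changes, from 0.11 to 0.24, and 0 were called. Isg15 stood at 9.44, 10.04, 13.1 and 14.9 CPM in wild type and at 22.5, 17.3, 8.24 and 8.03 CPM in knockout libraries. Usp18 had the same order within the knockout, at 29.2, 22.6, 10.9 and 8.94 CPM, against 13.5 to 18.2 CPM in wild type. In both genes knockout libraries 1 and 2 were above every wild type library and knockout libraries 3 and 4 below every one.

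The 4 membrane proteins had positive log2 fold changes, with a median of 0.53, and 0 were called. Ifitm1, Ifitm2 and Ifitm3 lie together on chromosome 7 and encode small proteins that keep enveloped viruses from fusing with the cell. Ifitm1 (140967429 to 140969827) stood at 48.2, 39.8, 35.6 and 29.6 CPM in wild type and at 121, 99.1, 35.5 and 27.5 CPM in knockout libraries. The fitted log2 difference of 0.89 (95% interval -0.08 to 1.85) had the smallest p of the 43 genes. The edgeR quasi-likelihood test gave p = 0.0688 (adjusted 0.924), and the exact permutation p was 0.400. Ifitm3 (141009590 to 141010744) stood at 208, 182, 170 and 156 CPM in wild type and at 376, 396, 177 and 147 CPM in knockout libraries, a log2 fold change of 0.61 (95% interval -0.08 to 1.31). Ifitm2 stood at 143, 110, 115 and 99.0 CPM and at 228, 211, 112 and 83.8 CPM. In all of them knockout libraries 1 and 2 were above every wild type library, while knockout libraries 3 and 4 lay within or below the wild type range. Bst2, the tetherin that holds budding virus at the cell surface, showed the same order, at 46.5, 44.4, 23.8 and 18.3 CPM in the knockout against 25.6 to 31.2 CPM in wild type. Of the exon bases of Ifitm2, 40.9% are shared with the annotated gene Gm45717 on the same strand.

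The immunity GTPases, which attack the vacuoles of intracellular microbes and respond mainly to interferon gamma, had 3 positive and 2 negative log2 fold changes, and 0 were called. Gbp3 stood at 21.5, 28.8, 36.3 and 23.4 CPM in wild type and at 26.8, 21.3, 22.7 and 19.2 CPM in knockout libraries, a log2 fold change of -0.29 ± 0.22 (SE). Its neighbour Gbp2 on chromosome 3 ran from 23.4 CPM (library 4) to 71.4 CPM (library 2) in the knockout, against 24.7 to 50.4 CPM in wild type. Igtp and Irgm1 ran from 37.8 to 71.4 and from 34.6 to 65.1 CPM over the knockout libraries, with library 1 highest for Igtp and library 2 for Irgm1.

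Among the remaining 8 genes 6 log2 fold changes were positive and 0 were called. Ifi44, a cytoplasmic protein of little known function, stood at 2.59, 4.23, 2.41 and 2.30 CPM in wild type and at 8.72, 8.71, 2.06 and 3.30 CPM in knockout libraries, a log2 fold change of 0.98 (95% interval -0.19 to 2.15). Ifi35 stood at 27.2, 26.3, 30.4 and 30.8 CPM and at 46.6, 46.0, 29.5 and 26.2 CPM, and its log2 fold change was 0.37 ± 0.22 (SE). For both genes knockout libraries 1 and 2 were above all wild type libraries and the other 2 were not. Trim30a, a TRIM family protein, showed the widest contrast within the knockout of this group, with 13.99 and 15.3 CPM in libraries 1 and 2 against 2.88 and 1.07 CPM in libraries 3 and 4, while wild type was at 7.13 ± 1.00 CPM (SD, n = 4). Ifi27, a mitochondrial protein, stood at 199, 128, 164 and 181 CPM in wild type and at 229, 180, 163 and 168 CPM in knockout libraries, a log2 fold change of 0.14 ± 0.18 (SE). Lgals3bp stood at 129, 136, 161 and 99.6 CPM and at 192, 177, 111 and 121 CPM, and its log2 fold change was 0.20 ± 0.22 (SE). Rtp4, a chaperone of G protein-coupled receptors, ran from 17.4 to 22.8 CPM in wild type and from 11.5 to 34.2 CPM in the knockout. Xaf1, an antagonist of the apoptosis inhibitor XIAP, ran from 15.9 to 26.4 CPM and Parp14, a mono-ADP-ribosyltransferase, from 3.55 to 9.59 CPM over all 8 libraries.

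Across the 43 genes the knockout libraries fell into an order that many of them shared. Knockout libraries 1 and 2 were both above knockout libraries 3 and 4 in 34 of the 43 genes, or 79.1%, as in 23.2% of all 15110 genes. They were above all other 6 libraries in 19 genes, or 44.2%, as in 6.85% of all genes. This order was noticed in the values and is given as a description with no test. Knockout library 1 was the highest of all 8 libraries in 16 genes and knockout library 2 in 12, while knockout library 4 was the lowest in 26. The same counts over all genes were not taken, so how far they are particular to the 43 is not known. Averaged over the 43 genes, log2 CPM lay above or below each gene's own mean by 0.53 and 0.63 in knockout libraries 1 and 2 and by -0.21 and -0.50 in knockout libraries 3 and 4. In wild type the same average was -0.15, -0.17, 0.05 and -0.18 in libraries 1 to 4. The SD of log2 CPM was wider in the knockout than in wild type in 34 of the 43 genes, against 52.4% of all genes.

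**Figure D4:**
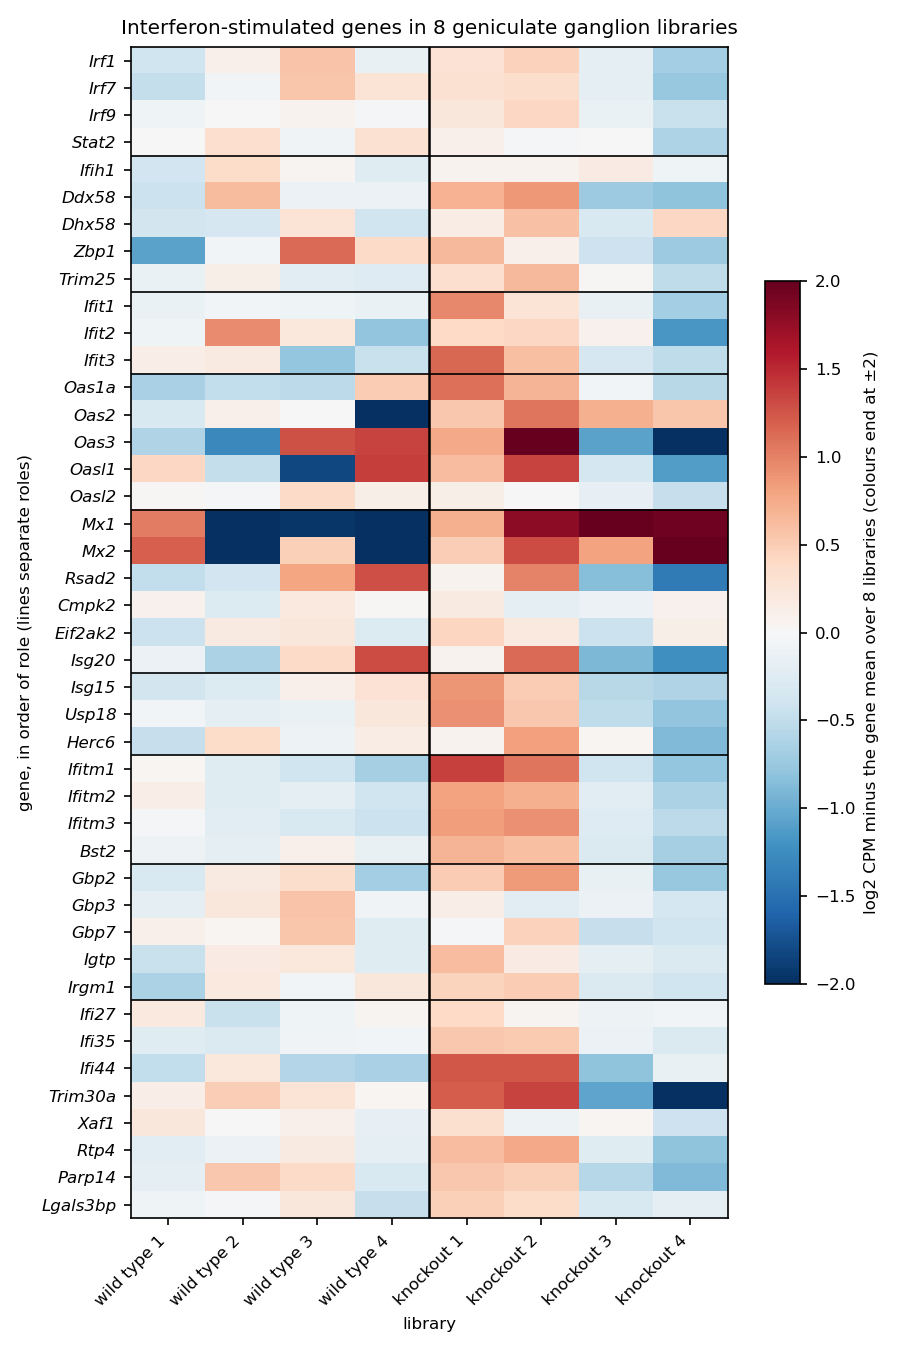
Log2 CPM of each of the 43 genes minus its mean over the 8 libraries, with libraries in columns and genes in rows ordered by role. Red is above and blue below the gene's mean. The columns of knockout libraries 1 and 2 are red in most rows. Gbp7 lies below its mean in knockout library 1, and Stat2, Cmpk2, Gbp3 and Xaf1 in knockout library 2. The column of knockout library 4 is blue in most rows, with Mx1, Mx2, Oas2 and Dhx58 among its exceptions.

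Some other measures moved with this order and some did not. Xist was without a read in knockout libraries 1 and 2 and present in knockout libraries 3 and 4. Wild type library 4, also without Xist, had an average of -0.18 over the 43 genes. Wild type libraries 1 to 3, which had Xist, had -0.15, -0.17 and 0.05. Genes near the floor weigh on these averages. In wild type library 4, Mx1, Mx2 and Oas2, with 0, 2 and 7 counts, lay at -2.92, -2.70 and -2.68. In wild type library 2, Mx1 and Mx2, with 0 counts each, lay at -2.92 and -3.69. Summed markers of meninges and choroid plexus, 4 of 4 measured, were 93038, 69826, 32382 and 24518 CPM in knockout libraries 1 to 4 and 10098 to 30495 CPM in wild type, and most of this was Ptgds, at 92176 CPM in knockout library 1. Summed macrophage markers, 10 of 10 measured and none at 0, were 876, 1103, 732 and 440 CPM in the knockout and 732 to 1011 CPM in wild type. Summed endothelial markers, 10 of 10 measured, were 475, 1402, 392 and 314 CPM in the knockout and 298 to 400 CPM in wild type, so knockout library 2 stood apart in them. Summed B cell markers, 4 of 4 measured, were 42.0, 71.5, 11.3 and 9.33 CPM in knockout libraries 1 to 4 and 18.3 to 86.7 CPM in wild type. Of 4 plasmacytoid dendritic cell markers, which include Bst2 itself, 3 had knockout libraries 1 and 2 both above knockout libraries 3 and 4. The same held for 8 of 8 neutrophil, 4 of 5 satellite glia, 1 of 5 myelinating Schwann cell, 1 of 5 fibroblast and 1 of 7 ganglion neuron markers. Summed ganglion neuron markers were 3730, 1815, 4867 and 6105 CPM in knockout libraries 1 to 4 and 2290 to 5486 CPM in wild type. Summed satellite glia markers were 3526, 4506, 3103 and 1711 CPM in the knockout and 3382 to 8313 CPM in wild type. The part of Xist class and of RNA of any of these cell types in the order of the 43 genes was not tested. The labels give no batch of extraction or sequencing. Leaving out knockout library 1 or 2 brought the median log2 fold change of the 43 genes to 0.03 and 0.05, and leaving out knockout library 4 brought it to 0.37 with 4 genes (Ifi35, Ifitm1, Ifitm2 and Ifitm3) at an unadjusted p under 0.05 and 0 called.

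**Figure D5:**
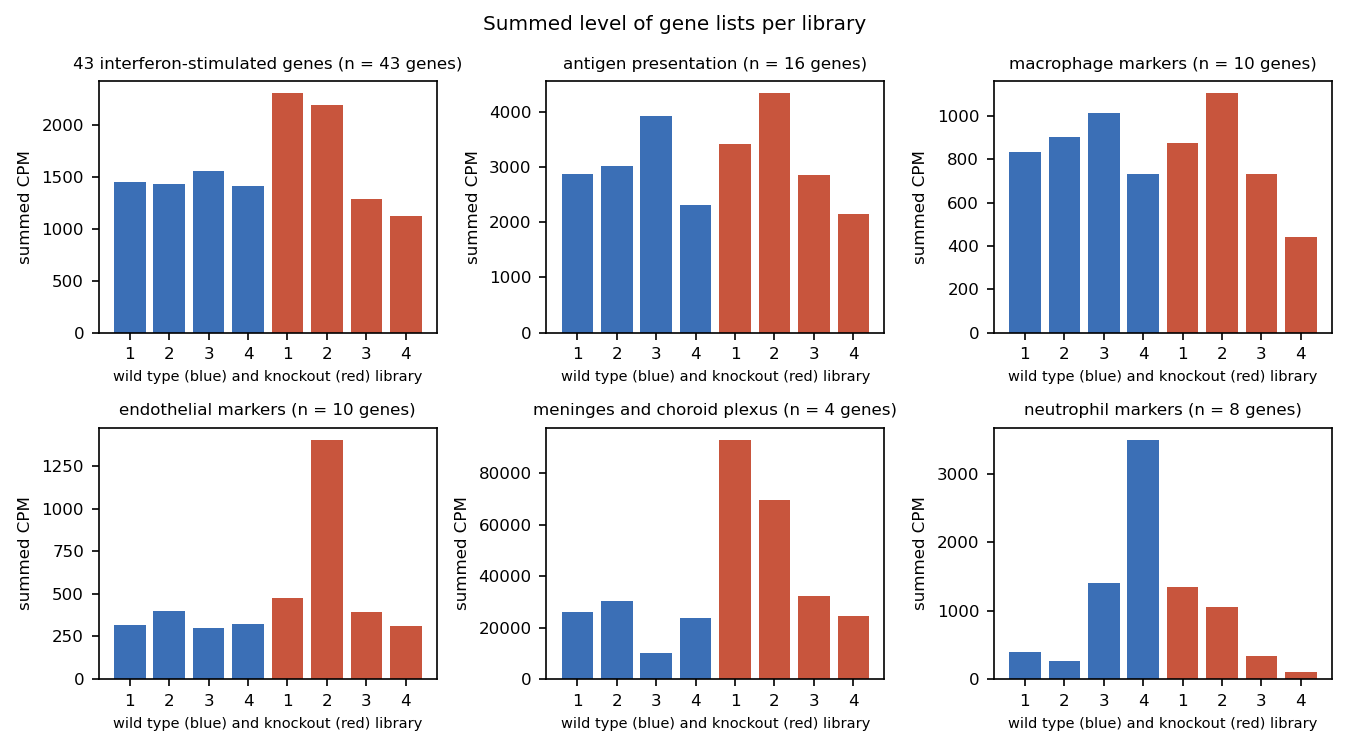
Summed CPM of the 43 interferon-stimulated genes, of 16 antigen presentation genes and of 4 lists of cell type markers in each library, blue for wild type and red for knockout. The sum of the 43 genes is highest in knockout libraries 1 and 2 (2299 and 2188 CPM) and lowest in knockout library 4 (1117 CPM). Within wild type, the 43 genes, antigen presentation genes and macrophage markers are each highest in library 3 and lowest in library 4. The endothelial, meningeal and neutrophil lists have their highest and lowest wild type libraries elsewhere.

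Antigen presentation genes, many of which interferon also raises, were the most like list examined. Of 16 genes, 9 had positive and 7 negative log2 fold changes, with a median of 0.02, and 0 were called. In 14 of the 16, knockout libraries 1 and 2 were both above knockout libraries 3 and 4. Their sum was 3416, 4333, 2851 and 2151 CPM in knockout libraries 1 to 4, and in wild type it ran from 2316 to 3918 CPM, reaching the knockout's high values in library 3. H2-K1, a class I heavy chain, ran at 299, 396, 196 and 150.5 CPM over knockout libraries 1 to 4 and from 208 to 322 CPM in wild type.

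The signalling genes upstream of the 43 were measured in 31 of 41 listed names, which hold older and newer symbols of some genes. Isg20l2 was put among the inhibitors of this list by mistake and is included in these counts. By the edgeR quasi-likelihood test 4 of the 31 had an unadjusted p under 0.05, or 12.9%, against 4.84% of all genes. This list too was chosen with earlier results of these data known. All listed receptors were among the genes measured. Ifnar1 averaged 60.4 ± 10.1 CPM in wild type against 56.7 ± 15.2 CPM without Egr4 (SD, n = 4 each). Ifnar2 stood at 71.8 ± 3.92 and 77.2 ± 23.6 CPM. Ifngr1 stood at 80.7 ± 10.8 and 97.4 ± 17.4 CPM and Ifngr2 at 86.9 ± 15.7 and 86.8 ± 10.4 CPM. Ifnlr1, the receptor of type III interferon, was at most 1.11 CPM and had 0 and 4 counts in wild type libraries 1 and 2. Its partner Il10rb ran from 102 to 171 CPM. Of 6 receptor genes 0 had an unadjusted p under 0.05, and none of the listed ligands was among the 15110 genes measured.

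Of 9 kinases and factors, 8 had negative log2 fold changes and 0 were called. Tyk2, the kinase bound to Ifnar1, stood at 11.2, 15.01, 14.99 and 14.1 CPM in wild type and at 6.12, 12.99, 6.69 and 7.54 CPM in knockout libraries. Only knockout library 2 reached the wild type range, and the log2 fold change was -0.73 ± 0.29 (SE). The edgeR quasi-likelihood test gave p = 0.0316 (adjusted 0.924), and the exact permutation p, not adjusted over genes, was 0.0571. For Jak1 the log2 fold change was -0.26 ± 0.17 (SE).

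Among genes listed as inhibitors 0 were called, and Ptpn2 and Socs3 were the ones at an unadjusted p under 0.05, as were 4.84% of all genes. Ptpn2, a phosphatase that removes phosphate from Jak1, stood at 14.2, 13.2, 12.8 and 18.5 CPM in wild type and at 21.5, 23.5, 19.7 and 23.7 CPM in knockout libraries. Its groups did not overlap, and the log2 fold change was 0.60 ± 0.20 (SE). The edgeR quasi-likelihood adjusted p was 0.924, and the exact permutation p, not adjusted over genes, was 0.0286, the smallest that 70 arrangements can give. Socs3, a feedback inhibitor of Jak kinases, stood at 9.11, 17.2, 42.3 and 15.02 CPM in wild type and at 11.3, 7.65, 14.03 and 6.85 CPM in knockout libraries, a log2 fold change of -1.07 ± 0.45 (SE). Wild type library 3 was far above the other libraries of its group.

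Among 11 sensors and adaptors 1 gene was called, Wdfy1, reported to link Toll-like receptors 3 and 4 to the adaptor Ticam1. It stood at 5.59, 9.07, 8.93 and 12.4 CPM in wild type and at 38.0, 52.7, 48.9 and 59.3 CPM in knockout libraries, a log2 fold change of 2.46 ± 0.27 (SE, edgeR quasi-likelihood adjusted p = 0.0477). With 1 library left out at a time, edgeR's adjusted p ran from 0.044 to 0.415 and missed 0.05 in all 8 cases but the one without wild type library 4. Its even level over the 4 knockout libraries differs from the order of Ifitm1 or Isg15, which in knockout libraries 3 and 4 stood at or below wild type. Tlr3, the receptor of double-stranded RNA, averaged 12.9 ± 2.72 CPM in the wild type group against 10.2 ± 4.55 CPM, and Ticam1 7.26 ± 0.919 against 5.37 ± 1.80 CPM (SD, n = 4 each).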

How the data were processed

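Libraries were made from total RNA of geniculate ganglia with a SMART-Seq v4 and a Nextera XT kit, per the labels' protocols. Build mm10, edgeR 3.12.1, STAR 2.5, Subread 1.5.1 with featureCounts, and FastQC 0.11.5 are listed, per the submitters' processing notes. The table that the authors deposited holds a raw read count per gene and library, used for all tests, and log2 FPKM values, used for levels between genes. When recomputed from the counts, the latter came out within 0.00348 for 5330 genes with at least 1000 counts. The p-value, false discovery rate and fold change columns of the authors' deposited table were not used.

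The filter filterByExpr removed 0 of 15110 genes. Counts were tested with edgeR 4.0.16 in R 4.3.3 using TMM factors, robust estimateDisp and glmQLFit, and the quasi-likelihood F-test with genotype as the only factor. Benjamini-Hochberg adjustment ran over the 15110 genes, with 0.05 as the limit for a call. Each SE is the log2 fold change over the square root of F. Exact permutation tests are two-sided, on log2 CPM with a prior count of 2 and 70 arrangements. The labels describe 4 mice per genotype, and no 2 libraries of a group agreed within sampling noise (smallest chi-square per degree of freedom 124).

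The members and all lists were chosen with earlier results of these data known. Named with full values were members called, without overlap, among the 12 smallest p, or among the 5 highest in log2 FPKM; others were named by level. Where values per library are given for other genes (such as Irf7, Isg15, Rsad2, Trim30a, Bst2, H2-K1 and Tlr3), these were chosen after their values were seen. Alternatives were RLE factors, library size alone, 2 other filters, the likelihood ratio test, non-robust dispersion, DESeq2 1.42.0, limma-voom (limma 3.58.1), the replicate number as a block, Xist class, and each library left out. Leaving out library 4 of both genotypes was added after seeing the data. In GENCODE M21, 15 of the 43 genes share exon bases with another gene, and 7 share over 5% of their stretches of 100 bases with another gene's transcripts. The labels describe no step that marks strand or molecular identifiers, and how reads of overlapping or near-identical genes were counted is not given in the sources used here. The values of 1 pathway gene and 1 neuron marker are not reported here.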

Additional observations from a re-analysis of the deposited data

Results flagged for a closer look

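In each genotype the highest and lowest of the 4 libraries were compared with the nearest other, over 86 groups of the 43 genes, where about 4.3 would stand apart by chance and 4 did. All 4 were a high library in wild type. Oas1a was at 12.3 CPM in wild type library 4 and at 5.45 to 6.12 CPM in the other 3, a gap of 0.902 of the group's range. Mx1 was at 0.638 CPM in wild type library 1 and at most at 0.0430 CPM in the other 3, a gap of 0.933. Dhx58 was at 9.42 CPM in wild type library 3 against 5.92 to 6.15 CPM, a gap of 0.933, and Ifi44 at 4.23 CPM in wild type library 2 against 2.30 to 2.59 CPM, a gap of 0.851. The 4 genes named 4 different libraries.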

How the results depend on the processing

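No setting called any of the 43 genes, also at an adjusted p of 0.1. The count of the 43 at an unadjusted p under 0.05 was 0 with edgeR's quasi-likelihood test. It was 2 with the likelihood ratio test (Ifitm1 and Mx1, higher in the knockout). With Xist class it was also 2, but other genes (Isg20 and Rsad2, lower in the knockout). It was 1 with DESeq2, limma-voom and the replicate block, and 3 without library 4 of both genotypes. With 1 library left out it was 0 to 4. The median log2 fold change of the 43 ran from 0.03 to 0.37 with 1 library left out and was 0.11 with library size alone, 0.38 without library 4 of both genotypes and -0.02 with Xist class. Over all genes 1 was called; 10 were by the likelihood ratio test, 14 by DESeq2, 2 with the replicate block, 0 with Xist class, RLE factors or library size alone, 0 without both libraries 4, and 0 to 1 with 1 library left out. The 1 call among pathway genes, Wdfy1, was likewise 0 with Xist class, RLE factors, library size alone and without both libraries 4, and 0 to 1 with 1 library left out. For each of these differences, the cause was not tested. The sign of the log2 fold change was kept in all 19 other fits by the 14 genes named with full values, in those fits that tested them, and by 7 of the other 29; of the 22 with the other sign in some fit, 10 had it with Xist class and 20 with 1 library left out. Mx1 and Mx2 were not tested at 1 CPM in 4 libraries. Response element cores on the strand of the gene alone were in 10 in place of 21 genes, since fewer positions are searched. Samples sharing a number are not stated to be paired, and correlations of their deviations from group means ran from 0.004 to 0.149, with libraries 3 and 4 not each closest to their own number.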

Other observations

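Markers of lymphocytes were low, and those listed for plasmacytoid dendritic cells differed between genes. Summed T and NK cell markers, 7 of 7 measured, ran from 12.9 to 22.5 CPM in wild type and from 9.45 to 26.8 CPM in the knockout, and 2 of the 7 had knockout libraries 1 and 2 both above knockout libraries 3 and 4. B cell markers summed to 18.6, 18.3, 34.0 and 86.7 CPM in wild type libraries 1 to 4. Siglech, a marker of plasmacytoid dendritic cells and microglia, stood at 13.8, 8.82, 7.02 and 7.78 CPM in knockout libraries 1 to 4 and at 8.62 to 17.2 CPM in wild type. Ccr9, found on plasmacytoid dendritic cells and some T cells, stood at 4.23, 6.02, 1.35 and 2.00 CPM in the knockout and at most at 2.61 CPM in wild type. Tcf4, listed with them, was far higher, at 109, 152, 112 and 126 CPM in knockout libraries 1 to 4 and 103 to 150 CPM in wild type. Their part in the levels of the 43 genes was not tested.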
